A study of Mus musculus with 24 samples.

Results

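The 10 genes described here encode the machinery of MHC class II antigen presentation. They were chosen as a list of symbols, and each symbol matched 1 row of both raw count tables, so 10 of the 27179 genes counted are described. They are H2-Aa, H2-Ab1 and H2-Eb1 (chains of the classical I-A and I-E molecules), Cd74 (the invariant chain), H2-DMa, H2-DMb1 and H2-DMb2 (chains of the peptide editor H2-M), H2-Oa and H2-Ob (chains of H2-O, the inhibitor of H2-M) and Ciita (the class II transactivator). RNA-seq was done on B cells of lymph nodes, in 24 libraries: 2 biological replicates for every combination of 4 genotypes and 3 stages. Control mice were Cd23T/+ and so carried Cre. PU.1 cKO mice (cKO from here on) were Cd23T/+ with Spi1fl/fl alleles. SpiB KO mice were Spib-/- and carried Spi1fl/fl alleles but no Cre (Cd23+/+). The double mutant, PU.1 SpiB DKO (DKO from here on), combined Spi1fl/fl, Cd23T/+ and Spib-/-. All mice were kept on a C57BL/6 background and were 6 to 20 weeks old, and Cre was driven by Cd23 sequences of a BAC transgene from the transitional B cell stage on. The stages were naive B cells, B cells cultured for 48 h with CD40L (50 ng/ml) + IL-4 (10 ng/ml), and B cells cultured for 48 h with LPS (20 µg/ml) + IL-4 (10 ng/ml). At every stage the cells were sorted as CD3- B220+ CD138-, a gate that removes T cells and plasma cells. Neither the labels nor the methods say which replicates came from the same animals, so p-values measure the spread between these libraries.

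MHC class II molecules are pairs of an alpha and a beta chain that show peptides from endocytosed proteins to CD4+ T cells. The invariant chain holds a new class II molecule in the ER and leads it to endosomes, where cathepsins cut the chain down, H2-M exchanges the remaining fragment for peptide, and H2-O restrains H2-M, most of all in B cells. CIITA does not bind DNA itself: it is recruited to the W, X and Y boxes of class II promoters by RFX, CREB and NF-Y, and B cells express it constitutively until plasma cell differentiation silences it.

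Of the counts in a library, 0.958 to 5.58% fell on the 10 genes, and library totals ran from 9598674 to 73658850 counts. The deepest library of the CD40L + IL-4 cultures, cKO replicate 2, held 61640683 counts where the median of that stage was 10070288. The B cell label was checked against markers, and Cd79a, Cd79b, Ms4a1, Cd22, Pax5, Blk and Cd72 were each at 16.5 CPM or more in every library. Spi1 was lower in every cKO library than in the control libraries of its stage. In naive cells it stood at 155 and 174 CPM in control, 53.2 and 59.5 CPM in cKO and 103 and 110 CPM in DKO. After LPS + IL-4, Spi1 was at 58.8 and 63.9 CPM in the libraries labelled PU.1 SpiB DKO, which overlapped the 60.7 and 72 CPM of control (log2 fold change -0.11, SE 0.1, edgeR adjusted p = 0.448), whereas cKO was at 41.2 and 44.2 CPM. A count over all exons can include transcripts that lack the deleted exon, so it checks these labels only in part. Exon coverage in the study showed the floxed exon of Spi1 to be partly retained in naive DKO cells and efficiently deleted in both cultures, which the count tables used here cannot show. Naive DKO cells are therefore not a full double loss. Spib stood at 1350 and 1470 CPM in naive control against 80.2 and 85.6 CPM in SpiB KO. Markers of other cells moved with loss of SpiB in naive cells. The summed level of 8 T cell markers was 266 to 388 CPM in SpiB KO and DKO against 13.9 to 39.1 CPM in control and cKO, that of 8 conventional dendritic cell markers was 162 to 225 CPM against 33 to 59.1 CPM, and that of 9 macrophage markers was 46.1 to 64 CPM against 9.95 to 18.1 CPM. Batf3 and Themis were at 0 in naive control and Mertk in naive control, SpiB KO and DKO. The sum of 10 plasmacytoid dendritic cell markers, some of which B cells also express (Ly6d, Bst2), was 3280 to 4070 CPM against 1480 to 2080 CPM. Dendritic cells and macrophages express class II, and the part of such cells in the naive values below was not tested.

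On GRCm38, 8 of the 10 genes lie on chromosome 17 between 34092379 and 34316674, in the order H2-Oa, H2-DMa, H2-DMb2, H2-DMb1, H2-Ob, H2-Ab1, H2-Aa and H2-Eb1. Ciita lies on chromosome 16 from 10480014 to 10531064, and Cd74 lies on another chromosome. RefSeq promoter windows of GRCm38.p6 (250 bases before to 50 after a start site) were looked up for 9 of the genes and found for 7, as 8 windows since H2-DMa has 2. They were searched on both strands for exact letters. These were ATTGG (core of the Y box, bound by NF-Y), TAGCAAC (an X1 box, bound by RFX) and TGACG (core of the X2 box, bound by CREB). GAGGAA, a longer form of the GGAA that PU.1 and SpiB bind, was searched too. Other forms of these elements, such as GGAA alone or an X1 box with another base, were not counted or marked. ATTGG was found in 7 of the 8 windows and in 37.4% of all 32851 windows, TAGCAAC in 2 of the 8 and in 3.66% of all windows, TGACG in 1 of the 8 and in 20.8%, and GAGGAA in 1 of the 8, that of H2-DMb1, and in 28.3%. In 6 genes ATTGG began on the gene's own strand between 43 and 90 bases before the start site. The 60 bases around it are shown for these 6. Whether these elements have a part in the changes described below was not tested. Each runs 5′ to 3′ on the gene's strand, and capitals mark the letters of the motifs above (in H2-Aa, TGACG overlaps its own reverse complement).
H2-Aa: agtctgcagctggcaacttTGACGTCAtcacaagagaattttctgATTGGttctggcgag
H2-Eb1: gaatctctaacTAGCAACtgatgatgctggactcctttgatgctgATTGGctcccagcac
H2-DMb1: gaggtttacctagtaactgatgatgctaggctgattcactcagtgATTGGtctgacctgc
H2-DMb2: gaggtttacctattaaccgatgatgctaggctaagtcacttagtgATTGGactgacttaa
H2-Oa: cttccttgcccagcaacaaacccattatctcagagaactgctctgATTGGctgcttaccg
H2-Ob: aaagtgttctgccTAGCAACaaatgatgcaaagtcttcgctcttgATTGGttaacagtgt

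The stretch of H2-Aa is chr17:34287857-34287916 on the minus strand. The others are on the plus strand: chr17:34305763-34305822 for H2-Eb1, chr17:34153085-34153144 for H2-DMb1, chr17:34145114-34145173 for H2-DMb2, chr17:34092291-34092350 for H2-Oa and chr17:34238803-34238862 for H2-Ob. H2-DMb1 and H2-DMb2 are close copies of each other, and 51 of the 60 bases shown (85%) were identical. Because the authors kept only reads with a unique alignment, the division of reads between this pair is uncertain. A match is a match of letters and not evidence of binding.

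In the cKO libraries the MHC region carried a signal that the other 18 libraries lacked, which bears on every H2 value of that genotype. H2-Ea-ps, the I-E alpha chain gene (chromosome 17 from 34341952 to 34344645), is not transcribed in the b haplotype of C57BL/6 mice because its promoter is deleted there. In naive cells it was read at 2530 and 2220 CPM in cKO, against 0.21 and 0.142 CPM in control, 0.535 and 0.809 CPM in SpiB KO and 0.369 and 0.843 CPM in DKO. After CD40L + IL-4 it stood at 1660 and 2760 CPM in cKO and at 0 to 3.33 CPM in the other 6 libraries, and after LPS + IL-4 at 1460 and 1140 CPM against 0.0249 to 0.648 CPM. The class I gene H2-K2 behaved alike: it was at 198 and 205 CPM in naive cKO and at 3.45 to 7.39 CPM in the other naive libraries. H2-Q2 was at 136 and 139 CPM against 0.63 to 1.11 CPM. H2-Eb2, a neighbour of H2-Eb1, went the other way, with 244 and 264 CPM in naive cKO against 525 and 688 CPM in control and 397 and 453 CPM in DKO. Class I genes form a family of similar copies, so the counts of single members are uncertain. Of the 23 class I and class I pathway genes tested in naive cells, 6 were higher and 1 was lower in cKO than in control (30.4%, where 8.4% of all genes were DE by the thresholds given below). In DKO, which also carries Spi1fl/fl and Cd23T/+, 1 was higher and 2 were lower (13%, near the 14.1% of all genes). H2-Ea-ps is transcribed in some other haplotypes of the H2 region. Whether the cKO mice carried another haplotype was not tested, and such a difference and loss of PU.1 cannot be told apart in the comparison of cKO with control. The DKO libraries, and Cd74 and Ciita, which lie outside the region, are therefore given beside each cKO result.

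**Figure D1:**
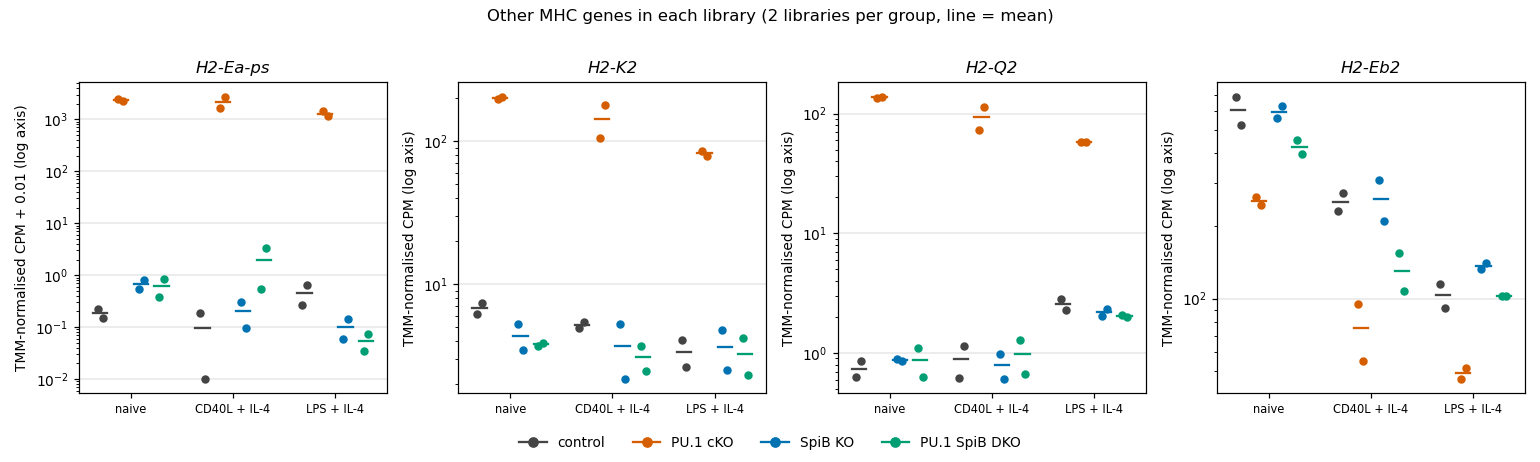
TMM-normalised CPM (log axes, with 0.01 added for H2-Ea-ps so that 0 can be drawn) of H2-Ea-ps, H2-K2, H2-Q2 and H2-Eb2 in each of the 24 libraries, by stage and genotype; points are libraries and lines are group means of 2. At every stage the cKO libraries stand apart from the other 3 genotypes, above them for H2-Ea-ps, H2-K2 and H2-Q2 and below them for H2-Eb2.

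The first comparison asked how the class II genes behaved when control B cells were activated. In naive control cells the order per length, as mean deposited log2 RPKM ± SD (n = 2), was led by Cd74 (13.58 ± 0.75) and the classical chains H2-Aa (12.99 ± 0.21), H2-Ab1 (12.4 ± 0.063) and H2-Eb1 (11.81 ± 0.094). H2-DMa (9.99 ± 0.019) and H2-DMb2 (9.95 ± 0.045) came next, then H2-Ob (9.09 ± 0.11) and H2-Oa (8.89 ± 0.13), and H2-DMb1 (6.26 ± 0.07) and Ciita (6.05 ± 0.34) were lowest. Within each of the pairs Cd74 and H2-Aa, H2-DMa and H2-DMb2, H2-Ob and H2-Oa, and H2-DMb1 and Ciita, the difference was smaller than the sum of the SDs. The order changed with activation. H2-Ob was at 7.39 ± 0.26 after CD40L + IL-4 and 5.67 ± 0.62 after LPS + IL-4, where it no longer stood above Ciita (6.67 ± 0.39 and 5.88 ± 0.54).

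**Figure D2:**
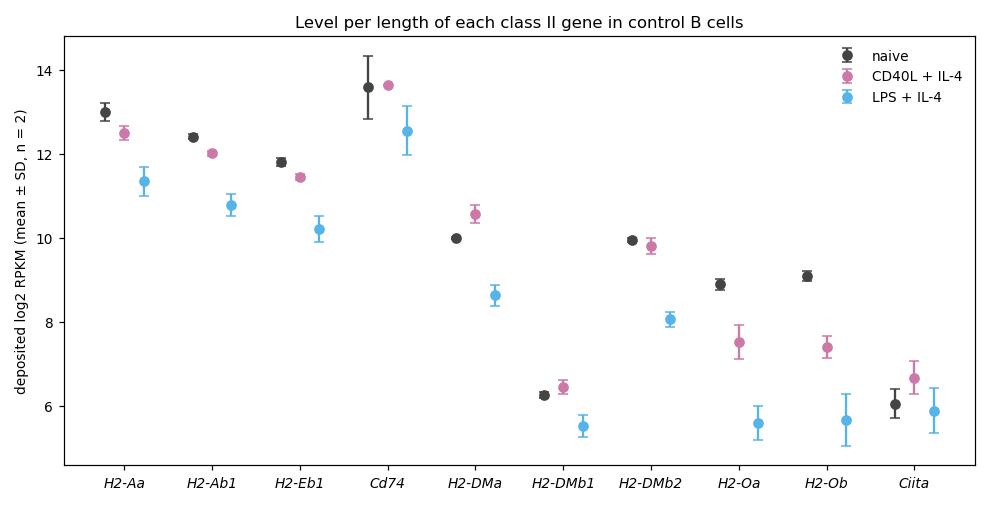
Deposited log2 RPKM (mean ± SD, n = 2) of the 10 genes in control B cells at the 3 stages. The 4 genes on the left are the most abundant at each stage, and H2-Oa and H2-Ob fall from near the peptide editor chains in naive cells to the level of Ciita after LPS + IL-4.

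Most of the genes were lower after activation, and furthest after LPS + IL-4. Differences between stages were tested on counts in a fit of all 24 libraries, in which a gene was differentially expressed (DE) where the adjusted p (Benjamini-Hochberg) was under 0.15, the change exceeded 1.5-fold and the mean log2 RPKM was above 0. After CD40L + IL-4, 6 of the 10 genes were DE against naive control, all lower, where 36.4% of all 13684 genes tested were DE. After LPS + IL-4, 9 of 10 were DE, all lower (48.8% of all genes). Between the cultures, all 10 were DE and lower after LPS + IL-4 (31.4% of all genes). The median log2 fold change of the 10 genes was -0.77 for CD40L + IL-4 against naive and -2 for LPS + IL-4 against naive, where the medians of all genes were 0 and 0.0064. In bulk RNA fewer cells of a type and less RNA per cell cannot be told apart.

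The classical chains were lower after CD40L + IL-4 than in naive cells and lower still after LPS + IL-4. On the scale of the 24 libraries, H2-Aa was at 11900 and 13600 CPM in naive control, 4160 and 5750 CPM after CD40L + IL-4 and 2480 and 2810 CPM after LPS + IL-4, with no overlap between stages. Its log2 fold change against naive was -1.36 (SE 0.18, edgeR adjusted p = 2.74e-06) after CD40L + IL-4 and -2.27 (SE 0.18, edgeR adjusted p = 1.76e-09) after LPS + IL-4. Cd74 was at 24100 and 27800, 13900 and 18800, and 6290 and 7370 CPM. It fell by 1.93 (SE 0.17, edgeR adjusted p = 5.81e-09) on the log2 scale after LPS + IL-4.

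The genes of the inhibitor H2-O fell furthest of the 10. H2-Ob was at 1400 and 1840 CPM in naive control, 390 and 515 CPM after CD40L + IL-4 and 101 and 177 CPM after LPS + IL-4. It was 11.7-fold lower after LPS + IL-4 than in naive cells (log2 fold change -3.55, SE 0.29, edgeR adjusted p = 1.73e-09), and H2-Oa was 10.6-fold lower (-3.4, SE 0.23, edgeR adjusted p = 1.72e-10). The chains of the editor H2-M, which H2-O inhibits, did not pass the thresholds after CD40L + IL-4. H2-DMa was at 779 and 908 CPM in naive cells, 945 and 1260 CPM after CD40L + IL-4 and 282 and 332 CPM after LPS + IL-4. Its change after CD40L + IL-4 was 0.39 (SE 0.15, edgeR adjusted p = 0.0387), below the 1.5-fold limit, and that of H2-DMb1 was 0.2 (SE 0.15, edgeR adjusted p = 0.283). That of H2-DMb2 was -0.25 (SE 0.12, edgeR adjusted p = 0.0938), with 631 and 762 CPM against 766 and 893 CPM in naive cells, and it was 3.99-fold lower after LPS + IL-4 than in naive cells. Whether H2-M and H2-O chains differed in their change was not tested.

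Ciita, the activator of the other genes, took another course. It was at 340 and 450 CPM in naive control, 472 and 677 CPM after CD40L + IL-4 and 267 and 407 CPM after LPS + IL-4, so that the naive and LPS + IL-4 libraries overlapped (log2 fold change -0.23, SE 0.25, edgeR adjusted p = 0.417). After CD40L + IL-4 both libraries lay above both naive libraries (0.54, SE 0.25, edgeR adjusted p = 0.0711), short of the 1.5-fold limit. A replicate term for each stage made the fit compare the stages at replicate 1 (0.9, SE 0.15), so it does not check this difference. Which side of the limit the difference fell on depended on CD40L + IL-4 control replicate 2 and on naive control replicate 2. Between the cultures Ciita was lower after LPS + IL-4 (-0.77, SE 0.25, edgeR adjusted p = 0.0146), a call that was lost without CD40L + IL-4 control replicate 1 or LPS + IL-4 control replicate 2.

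The second comparison asked which of the genes depended on PU.1, SpiB or both in naive B cells. Every gene was lower in cKO than in control with no overlap between libraries (10 of 10, where 26% of all genes were lower without overlap). In DKO every gene but H2-DMb1 was lower without overlap, where 58.2% of all genes did not overlap, in either direction. By the thresholds for DE, 3 of the 10 genes passed in cKO, all lower, where 8.4% of all 12500 genes tested were DE. These were Ciita, H2-Oa and H2-Ob. In DKO 4 genes were DE, all lower (14.1% of all genes): Cd74, H2-DMb2, H2-Ob and Ciita. In SpiB KO 1 gene was DE, Ciita, and it was lower (6.35% of all genes). The 3 comparisons share the same 2 control libraries. At every stage SpiB KO and control also differed by Cre and by the floxed alleles, and DKO and SpiB KO by Cre. The part of these differences was not tested. The median log2 fold change of the 10 genes was -0.44 in cKO, -0.44 in DKO and -0.092 in SpiB KO, beside medians of all genes of -0.013, 0.0022 and 0.012.

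Ciita was at 312 and 431 CPM in naive control, 168 and 180 CPM in cKO, 216 and 258 CPM in SpiB KO and 148 and 214 CPM in DKO, and all 3 mutant genotypes lay below control without overlap. It was 2.13-fold lower in cKO (log2 fold change -1.09, SE 0.2, edgeR adjusted p = 0.0112) and 2.05-fold lower in DKO (-1.04, SE 0.2, edgeR adjusted p = 0.00608). In SpiB KO it was 1.57-fold lower (-0.65, SE 0.2, edgeR adjusted p = 0.0941), and this call was lost without naive control replicate 2 or without either SpiB KO library. The interaction term (DKO minus the sum of both single effects) was 0.71 (SE 0.28, edgeR adjusted p = 0.384) and did not pass. The floxed exon was partly retained in naive DKO, with Spi1 at 103 and 110 CPM against 53.2 and 59.5 CPM in cKO. This term therefore does not measure a full double loss, and Cre and the floxed alleles do not cancel in it. Blocked on the replicate number, the term was 0.67 (SE 0.14, edgeR adjusted p = 0.0431) and passed, as did that of H2-Oa (0.43, SE 0.11, edgeR adjusted p = 0.072), and without naive control replicate 1 that of Ciita passed. In the fit without a block 0 of the 10 genes had an interaction by edgeR (0.936% of all genes did), 1 had an unadjusted p under 0.05, and DESeq2 and voom also called 0.

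Cd74 was at 22100 and 26600 CPM in naive control, 16300 and 16200 CPM in cKO, 20600 and 21800 CPM in SpiB KO and 15000 and 14300 CPM in DKO. Its log2 fold change was -0.74 (SE 0.13, edgeR adjusted p = 0.0041) in DKO and -0.58 (SE 0.13, edgeR adjusted p = 0.0291) in cKO, the latter just inside the 1.5-fold limit and so not DE. The inhibitor chain H2-Ob was at 1690 and 1340 CPM in control, 894 and 809 CPM in cKO, 1350 and 1280 CPM in SpiB KO and 967 and 822 CPM in DKO. It was 1.78-fold lower in cKO (-0.83, SE 0.14, edgeR adjusted p = 0.00926) and 1.69-fold lower in DKO (-0.76, SE 0.14, edgeR adjusted p = 0.00568). The classical chains stayed within the 1.5-fold limit. Their log2 fold changes against control were -0.43 to -0.33 in cKO, -0.42 to -0.39 in DKO and -0.031 to 0.056 in SpiB KO.

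**Figure D3:**
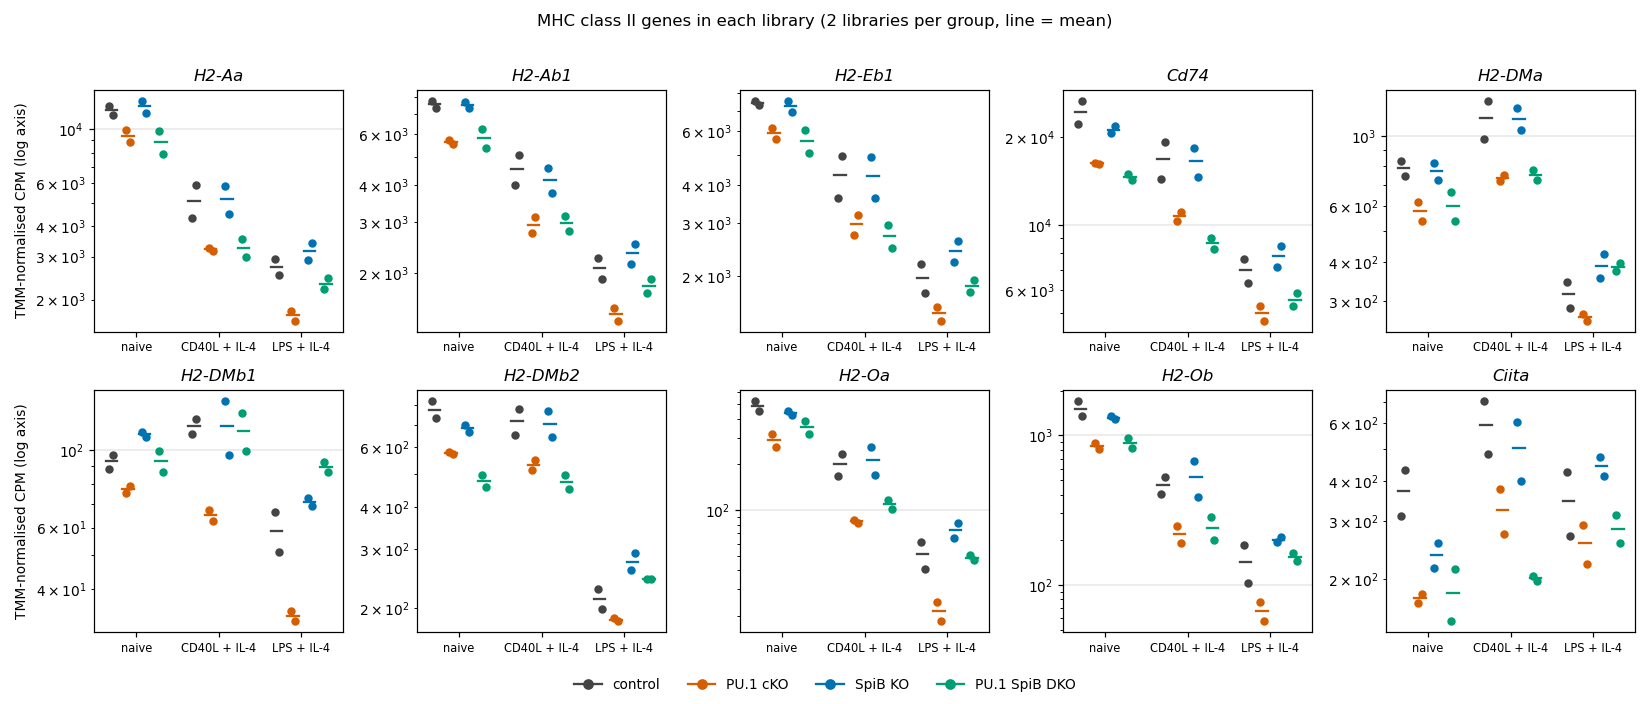
TMM-normalised CPM (log axes) of the 10 genes in each library, by stage and genotype; points are libraries and lines are group means of 2. In naive cells and after CD40L + IL-4, cKO and DKO lie below control and SpiB KO for most genes, whereas after LPS + IL-4 cKO alone lies low for H2-DMb1, H2-Oa and H2-Ob.

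After CD40L + IL-4, the culture that mimics T cell help, nearly the whole pathway was lower in cKO and in DKO, and none of it passed the thresholds in SpiB KO. In cKO 8 of the 10 genes were DE, all lower (9.36% of all 12721 genes tested), and in DKO 9 of 10, all lower (13.7% of all genes). The gene that was not DE in DKO was H2-DMb1, and those that were not in cKO were H2-Eb1 and H2-DMb2. All 10 genes were lower in cKO than in control without overlap, where 26.4% of all genes were. In DKO all but H2-DMb1 were, where 56.5% of all genes did not overlap, in either direction. In SpiB KO 0 of 10 were DE by edgeR (0.11% of all genes), 0 had an unadjusted p under 0.05, and DESeq2 and voom called 0. Against SpiB KO as the reference, 6 of 10 were DE in DKO, all lower (11.4% of all genes): H2-Aa, H2-Eb1, Cd74, H2-Oa, H2-Ob and Ciita. The median log2 fold change of the 10 genes against control was -0.66 in cKO, -0.65 in DKO and -0.0094 in SpiB KO.

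Ciita was at 701 and 483 CPM in control, 376 and 274 CPM in cKO, 608 and 398 CPM in SpiB KO and 204 and 197 CPM in DKO. SpiB KO overlapped control, cKO lay below it, and DKO lay below all others. It was 2.95-fold lower in DKO (log2 fold change -1.56, SE 0.25, edgeR adjusted p = 0.00205), 1.82-fold lower in cKO (-0.87, SE 0.24, edgeR adjusted p = 0.0514) and at -0.23 in SpiB KO (SE 0.24, edgeR adjusted p = 1). Cd74 was at 14400 and 19200 CPM in control, 10300 and 11100 CPM in cKO, 18400 and 14600 CPM in SpiB KO and 9050 and 8290 CPM in DKO. Its log2 fold change was -0.66 (SE 0.19, edgeR adjusted p = 0.0619) in cKO and -0.96 (SE 0.19, edgeR adjusted p = 0.00844) in DKO.

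H2-Oa was at 168 and 233 CPM in control, 86.3 and 82.3 CPM in cKO, 260 and 171 CPM in SpiB KO and 116 and 102 CPM in DKO. cKO and DKO lay below both other genotypes, and against control H2-Oa fell by 1.25 (SE 0.22, edgeR adjusted p = 0.00546) on the log2 scale in cKO and fell by 0.88 (SE 0.22, edgeR adjusted p = 0.0236) for DKO. H2-Aa was at 4310 and 5880 CPM in control, 3250 and 3170 CPM in cKO, 5870 and 4480 CPM in SpiB KO and 3530 and 2990 CPM in DKO. It changed by -0.67 (SE 0.2, edgeR adjusted p = 0.0679) and -0.65 (SE 0.2, edgeR adjusted p = 0.0592), much like H2-Ab1 (-0.63 and -0.62) and H2-DMa (-0.62 and -0.59). H2-DMb1 differed between cKO and DKO: it was at 111 and 123 CPM in control, 67.4 and 62.7 CPM in cKO and 128 and 99.3 CPM in DKO.

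Many of these changes were near the 1.5-fold limit, and the counts depended on single libraries. Without cKO replicate 2, the deep library, 1 gene was DE in cKO (H2-Oa), without cKO replicate 1 4 were, and without control replicate 2 3 were. In DKO 3 genes were DE without control replicate 2 or without DKO replicate 2 (Cd74, H2-Oa and Ciita in both), and against SpiB KO 3 were without SpiB KO replicate 1 or DKO replicate 2. Voom gave 5 for DKO against control. Plasma cell markers moved with the same genotypes: the sum of 9 markers was 3130 to 4420 CPM in cKO and DKO against 1740 to 2420 CPM in control and SpiB KO. T cell markers also did, at 33.1 to 59.2 CPM against 5.13 to 11.3 CPM, with Cd3d and Cd4 at 0 in cKO and Themis at 0 in DKO. Of the B cell markers named above, Blk, Cd72 and Pax5 were DE and lower in cKO, where they fell by 0.82 to 2.06 on the log2 scale, and these with Cd22 and Ms4a1 in DKO, where they fell by 0.67 to 1.65, while Cd79a and Cd79b were not DE in either. The part of these markers' cells in the class II values was not tested.

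After LPS + IL-4 the values of DKO lay closer to control than those of cKO for H2-Oa and H2-Ob and above control for H2-DMb1. In cKO 4 of the 10 genes were DE, all lower (6.67% of all 12445 genes tested): H2-Aa, H2-DMb1, H2-Oa and H2-Ob. In 9 of 10 the cKO libraries lay below control without overlap (23.9% of all genes did). In DKO only H2-Aa and Cd74 lay below control without overlap, and H2-DMa, H2-DMb1 and H2-DMb2 lay above it. Of all genes, 65.4% did not overlap between DKO and control, in either direction. In DKO 1 gene was DE, H2-DMb1, and it was higher (13.6% of all genes). In SpiB KO 0 of 10 were DE by edgeR (2.29% of all genes), 4 had an unadjusted p under 0.05, all of them higher, and DESeq2 and voom called 0. Without LPS + IL-4 control replicate 1, H2-Oa, H2-Ob and Ciita were DE in SpiB KO, all higher. Against SpiB KO, 2 of 10 were DE in DKO, H2-Oa and Ciita, both lower (8.09% of all genes). The median log2 fold change of the 10 genes against control was -0.51 in cKO, -0.072 in DKO and 0.3 in SpiB KO.

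H2-Oa was at 61 and 40.7 CPM in LPS + IL-4 control, 24.6 and 18.4 CPM in cKO, 65.7 and 82.6 CPM in SpiB KO and 50.4 and 46.7 CPM in DKO. cKO lay below every other library, and DKO lay between the control libraries. The log2 fold change in cKO was -1.23 (SE 0.2, edgeR adjusted p = 0.00402), and that in DKO was -0.061 (SE 0.2, edgeR adjusted p = 0.848). H2-Ob was at 184 and 102 CPM in control, 76.2 and 56.9 CPM in cKO, 193 and 208 CPM in SpiB KO and 162 and 144 CPM in DKO. It changed by -1.1 (SE 0.24, edgeR adjusted p = 0.0148) in cKO and 0.1 (SE 0.23, edgeR adjusted p = 0.77) in DKO.

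H2-DMb1 was lowest in cKO and highest in DKO. It was at 66.4 and 51.2 CPM in control, 34.6 and 32.3 CPM in cKO, 72.8 and 69 CPM in SpiB KO and 92.6 and 86.4 CPM in DKO, and no genotype overlapped another. It was 1.75-fold lower in cKO than in control (log2 fold change -0.81, SE 0.12, edgeR adjusted p = 0.00218) and higher in DKO (0.61, SE 0.12, edgeR adjusted p = 0.00395). Its copy H2-DMb2 was at 228 and 199 CPM, 187 and 183 CPM, 259 and 291 CPM, and 244 and 244 CPM in the same order. H2-DMb1 made up 15 and 15.6% of the sum of both in cKO, 20.5 and 22.6% in control and 26.2 and 27.5% in DKO.

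With all libraries in the fit, the genes outside the H2 region did not pass the thresholds in either genotype after LPS + IL-4. In cKO this depended on control replicate 2, as given below. Ciita was at 425 and 270 CPM in control, 292 and 222 CPM in cKO, 474 and 413 CPM in SpiB KO and 313 and 257 CPM in DKO, and both cKO and DKO overlapped control. Its log2 fold change was -0.43 (SE 0.2, edgeR adjusted p = 0.25) in cKO and -0.28 (SE 0.2, edgeR adjusted p = 0.328) in DKO. Cd74 was at 7680 and 6360 CPM in control, 5290 and 4720 CPM in cKO, 7190 and 8490 CPM in SpiB KO and 5290 and 5840 CPM in DKO. Its changes of -0.49 (SE 0.15, edgeR adjusted p = 0.0715) and -0.34 (SE 0.15, edgeR adjusted p = 0.116) were within the 1.5-fold limit. The LPS + IL-4 control libraries differed from each other, with all 10 genes higher in replicate 1, by up to 0.85 on the log2 scale. Without control replicate 2, H2-Ab1 and both genes outside the region, Cd74 and Ciita, were also DE in cKO. H2-DMb1 was no longer DE in DKO without control replicate 2 or without DKO replicate 1. In DKO against SpiB KO, the call of H2-Oa was lost without either DKO library or without SpiB KO replicate 2. That of Ciita was lost without DKO replicate 2 or without SpiB KO replicate 1, and Cd74 was called in its place. Plasma cell markers summed to 2060 to 3010 CPM in cKO and DKO against 1200 to 1410 CPM in the other libraries. T cell markers summed to 35.9 to 37.4 CPM in DKO against 1.57 to 6.73 CPM, although Cd3e and Themis were at 0 in both DKO libraries. The part of the cells of either marker list in these values was not tested.

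**Figure D4:**
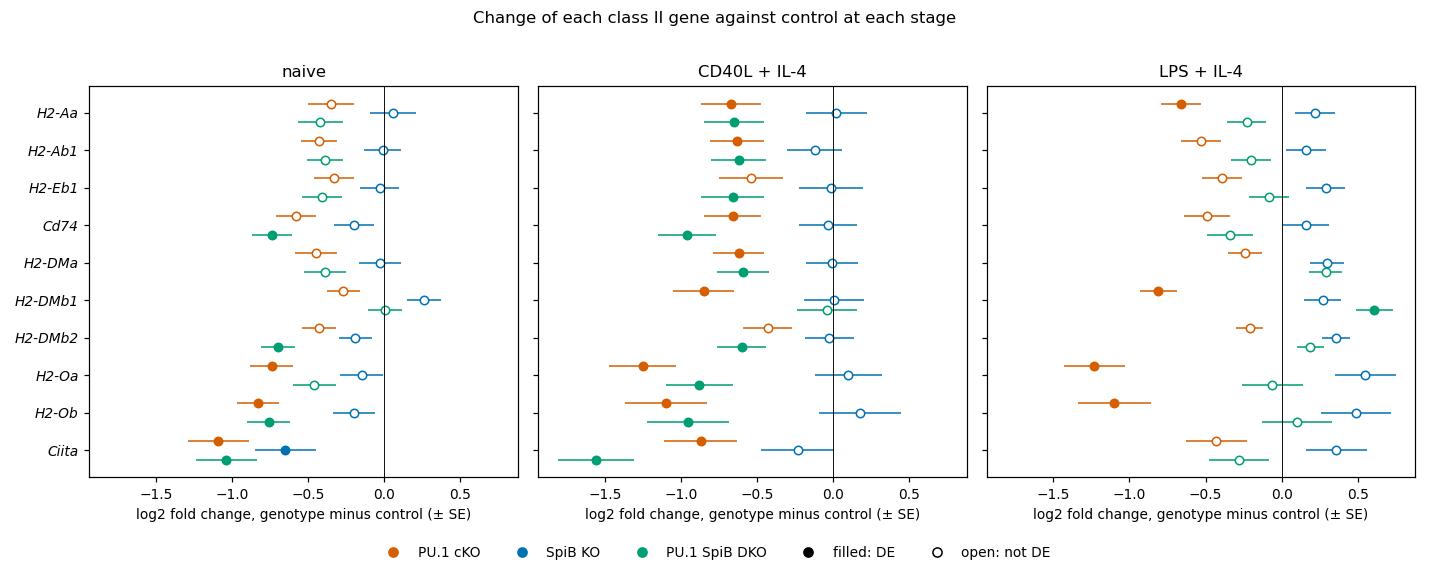
Log2 fold change (± SE, edgeR) of each of the 10 genes against control in cKO, SpiB KO and DKO at the 3 stages; filled points were DE. cKO lies left of 0 for all 10 genes at each stage. After LPS + IL-4 DKO lies right of cKO, by 1.42 for H2-DMb1, 1.17 for H2-Oa and 1.2 for H2-Ob. The shift is 0.3 to 0.53 for the other H2 genes and 0.15 for Cd74 and Ciita.

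DKO was then compared with cKO directly, a pair that differs by SpiB, by the level of H2-Ea-ps and by that of Spi1. Spi1 was higher in DKO without overlap in naive cells (103 and 110 CPM against 53.2 and 59.5 CPM). It was also higher after LPS + IL-4 (58.8 and 63.9 CPM against 41.2 and 44.2 CPM). After CD40L + IL-4 it was lower in DKO without overlap (32.5 and 25.6 CPM against 46.9 and 35.1 CPM). The part of Spi1 in the differences was not tested. In naive cells 0 of the 10 genes were DE by edgeR (7.21% of all genes), 2 had an unadjusted p under 0.05, and DESeq2 and voom called 0. After CD40L + IL-4 1 was DE, H2-DMb1, which was higher in DKO (log2 difference 0.81, SE 0.2, edgeR adjusted p = 0.075, 3.01% of all genes), and this call was lost without either cKO library or without DKO replicate 1. Ciita was also called, lower in DKO, with the replicate number as a block (-0.67, SE 0.15, edgeR adjusted p = 0.0401), and DESeq2 called 2 genes. After LPS + IL-4 3 were DE, all higher in DKO (8.1% of all genes), and these were H2-DMb1 (1.42, SE 0.12, edgeR adjusted p = 0.000189), H2-Oa (1.17, SE 0.2, edgeR adjusted p = 0.00596) and H2-Ob (1.2, SE 0.24, edgeR adjusted p = 0.00949). All 3 lie in the H2 region, as do 8 of the 10 genes, and the other H2 genes of the 10 differed by 0.3 to 0.53. Cd74 and Ciita differed by 0.15 each (SE 0.15 and 0.2, edgeR adjusted p = 0.508 and 0.639) in that comparison. Whether genes inside and outside the region differed in their change was not tested. Within 1 Mb of the 8 H2 genes, 13 of 89 other genes tested in naive cells (14.6%) were DE between DKO and cKO, 5 of 92 (5.43%) after CD40L + IL-4 and 14 of 85 (16.5%) after LPS + IL-4. DKO was also compared with SpiB KO in naive cells, where 0 of 10 were DE by edgeR (1.97% of all genes). There 8 genes had an unadjusted p under 0.05, all lower in DKO, DESeq2 and voom called 0, and H2-Aa was DE without DKO replicate 1.

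Whether the double loss departed from the sum of both single losses was tested as an interaction. After LPS + IL-4 1 of 10 genes had one, H2-DMb1 (1.14, SE 0.17, edgeR adjusted p = 0.0202, 1.48% of all genes). With the replicate number as a block H2-Ob passed too (0.67, SE 0.23, edgeR adjusted p = 0.145), and without LPS + IL-4 control replicate 2 H2-Oa and H2-Ob did. After CD40L + IL-4 0 of 10 passed by edgeR (1.17% of all genes), 1 had an unadjusted p under 0.05, and DESeq2 and voom called 0. An interaction uses the cKO libraries, in which H2-Ea-ps stood apart. Cre and the floxed Spi1 alleles do not cancel in it, since SpiB KO lacked Cre and control lacked the floxed alleles.

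The effect of DKO against control differed between the cultures, which may come from separate sequencing runs. The log2 fold change of DKO against control was tested between LPS + IL-4 and CD40L + IL-4 in the fit of all 24 libraries, and 7 of 10 genes passed, all with a less negative or a positive change after LPS + IL-4 (28.6% of all genes passed). Ciita had the largest difference (1.2, SE 0.35, edgeR adjusted p = 0.0261), followed by H2-Ob (0.97, SE 0.37, edgeR adjusted p = 0.0797), H2-DMa (0.8, SE 0.22, edgeR adjusted p = 0.0183), H2-Oa (0.74, SE 0.3, edgeR adjusted p = 0.103), H2-DMb2 (0.71, SE 0.18, edgeR adjusted p = 0.0116), H2-DMb1 (0.57, SE 0.22, edgeR adjusted p = 0.0802) and Cd74 (0.54, SE 0.23, edgeR adjusted p = 0.119). With voom and quantile normalization the difference of Cd74 turned to -0.13 (SE 0.43, adjusted p = 0.874). This comparison involves no cKO library, and Spi1 itself was at 25.6 and 32.5 CPM in DKO after CD40L + IL-4 against 84.8 and 108 CPM in control, while it overlapped control after LPS + IL-4. These are counts over all exons, and the study's coverage of the floxed exon showed it deleted in both cultures. Without LPS + IL-4 control replicate 2 2 genes passed, and without CD40L + IL-4 control replicate 2, CD40L + IL-4 DKO replicate 2 or LPS + IL-4 DKO replicate 1 3 did. The same test for cKO gave 0 of 10 by edgeR (3.09% of all genes) and 0 at an unadjusted p under 0.05, and for SpiB KO 0 of 10 (0% of all genes) and 1, with 0 by DESeq2 and voom in both. Between CD40L + IL-4 and naive cells, 0 of 10 passed for cKO (9.05% of all genes), for SpiB KO (2.15%) and for DKO (16.8%) by edgeR, and 1, 0 and 0 had an unadjusted p under 0.05. In that test DESeq2 called 1 gene for cKO and 0 for the others, and voom 1, 0 and 1.

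Genes that act on class II molecules after transcription were counted as a list. Of 12 genes of antigen processing and class II turnover tested, 3 were DE in naive cKO, all lower (25%, where 8.4% of all genes were DE), and 6 in naive DKO, 3 higher and 3 lower (50%, all genes 14.1%). After CD40L + IL-4, 5 were DE in cKO, all lower (41.7%, all genes 9.36%), and 8 in DKO, 1 higher and 7 lower (66.7%, all genes 13.7%), with a median log2 fold change over the 12 genes of -0.52 and -0.83. After LPS + IL-4 5 were DE in cKO, 2 higher and 3 lower (41.7%, all genes 6.67%), and 7 in DKO, 3 higher and 4 lower (58.3%, all genes 13.6%). In naive SpiB KO 3 were DE, all higher (25%, all genes 6.35%).

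March1, the ubiquitin ligase that takes peptide-loaded class II off the surface of B cells, had the lowest values of the list in DKO relative to control after CD40L + IL-4. In naive cells it ran from 255 to 310 CPM in control, 148 to 208 CPM in cKO, 211 to 252 CPM in SpiB KO and 86.3 to 113 CPM in DKO. After CD40L + IL-4 it was at 107 and 123 CPM in control, 39.9 and 48.4 CPM in cKO, 103 and 121 CPM in SpiB KO and 6.67 and 6.8 CPM in DKO, a log2 fold change of -4.09 (SE 0.2, edgeR adjusted p = 7.85e-07) in the last. SpiB KO overlapped control there, and the interaction was -2.67 (SE 0.25, edgeR adjusted p = 0.00221). After LPS + IL-4 March1 was at 18.4 and 32.2 CPM in control and 3.4 and 5.3 CPM in DKO (-2.51, SE 0.28, edgeR adjusted p = 0.000171).

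Lgmn (legumain, an endosomal protease) was at 229 and 266 CPM in CD40L + IL-4 control, 104 and 107 CPM in cKO, 153 and 218 CPM in SpiB KO and 32.4 and 35.3 CPM in DKO. It fell by 2.87 (SE 0.2, edgeR adjusted p = 1.06e-05) on the log2 scale in DKO. Ctss (cathepsin S, which trims the invariant chain in B cells) was at 376 and 520 CPM in control and at 229 CPM in each of both DKO libraries (-0.97, SE 0.18, edgeR adjusted p = 0.0058), and it changed by the same -0.97 in cKO (SE 0.18, edgeR adjusted p = 0.00813). Cd83, a surface protein that opposes MARCH1, was at 1180 and 1440 CPM in control, 668 and 781 CPM in cKO and 536 and 603 CPM in DKO, with log2 fold changes of -0.85 (SE 0.18, edgeR adjusted p = 0.0162) and -1.2 (SE 0.19, edgeR adjusted p = 0.00176). In naive SpiB KO and DKO the genes that rose were the lysosomal proteases Ctsb, Ctsd and Ctsl, by 3.22 (SE 0.36, edgeR adjusted p = 0.000814) for Ctsl in SpiB KO, beside the macrophage and dendritic cell markers given above.

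**Figure D5:**
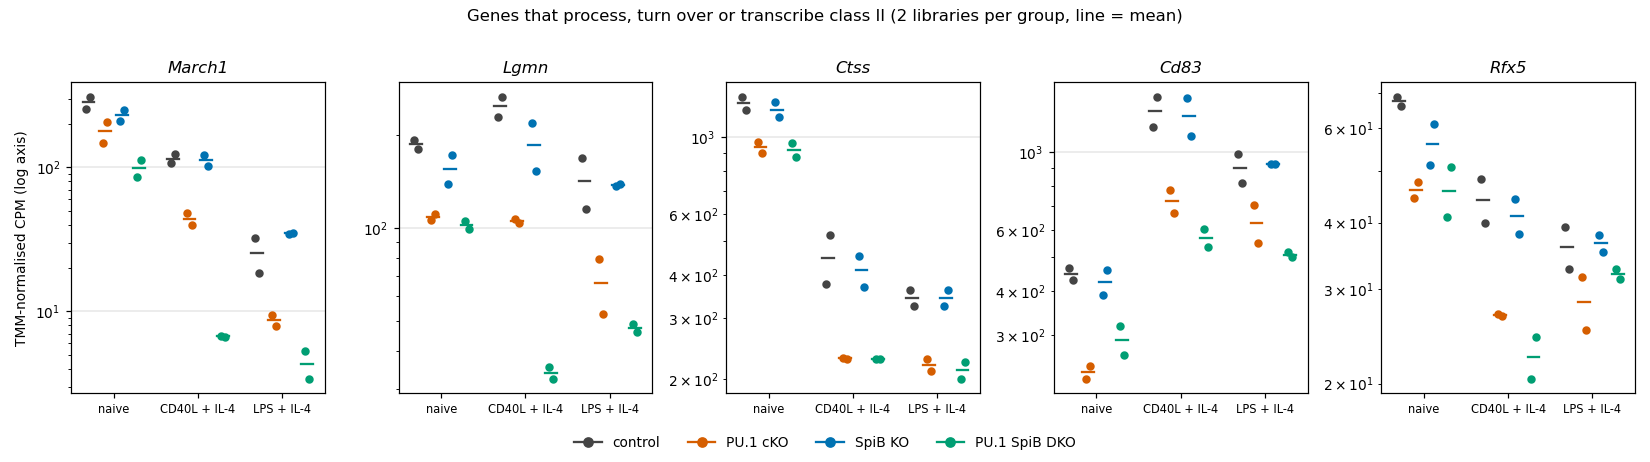
TMM-normalised CPM (log axes) of March1, Lgmn, Ctss, Cd83 and Rfx5 in each library, by stage and genotype; points are libraries and lines are group means of 2. After CD40L + IL-4, March1 is at 6.67 and 6.8 CPM in DKO against 103 to 123 CPM in control and SpiB KO.

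A list of 16 transcription factors and coactivators of class II, Ciita or B cell and plasma cell regulation was counted. It holds Pax5, Bcl6, Bach2 and Prdm1, which the study had reported as changed in cKO or DKO, so its shares partly follow from the choice. In naive cKO 3 were DE, all lower (18.8%, where 8.4% of all genes were DE). After CD40L + IL-4 5 were DE in cKO, 2 higher and 3 lower (31.2%, all genes 9.36%). After LPS + IL-4 3 were DE in cKO, 2 higher and 1 lower (18.8%, all genes 6.67%). In DKO 6 were DE in naive cells, 1 higher and 5 lower (37.5%, all genes 14.1%), 7 after CD40L + IL-4, 2 higher and 5 lower (43.8%, all genes 13.7%), and 3 after LPS + IL-4, all higher (18.8%, near the 13.6% of all genes). Rfx5, a subunit of the RFX complex that binds the X box, was at 40 and 48.3 CPM in CD40L + IL-4 control, 26.7 and 27 CPM in cKO, 38 and 44.2 CPM in SpiB KO and 20.4 and 24.4 CPM in DKO. It changed by -0.72 (SE 0.17, edgeR adjusted p = 0.025) in cKO and -0.98 (SE 0.18, edgeR adjusted p = 0.00428) in DKO. Prdm1, which encodes Blimp-1, the repressor that silences Ciita in plasma cells, was at 8.33 and 9.12 CPM in control, 48.8 and 52.9 CPM in cKO, 5.03 and 6.06 CPM in SpiB KO and 45.4 and 50.6 CPM in DKO. It was DE and higher in both (2.55 and 2.46, SE 0.18 each, edgeR adjusted p = 9.41e-06 and 1.38e-05). After LPS + IL-4 Prdm1 was at 18.5 and 22.5 CPM in control, 44.2 and 47.8 CPM in cKO and 58.1 and 64.4 CPM in DKO, beside Ciita values that overlapped control. In naive SpiB KO 3 of the 16 were DE, 1 higher and 2 lower (18.8%, all genes 6.35%). The coactivators Crebbp and Ep300 were lower in all 3 mutant genotypes in naive cells, by 1.13 to 1.16 and 0.84 to 0.88 on the log2 scale. These comparisons share the same control libraries, so they are not separate observations of a fall.

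Over the 24 libraries, with the mean of each stage taken off, Pearson's r of log2 CPM between the 45 pairs of the 10 genes had a median of 0.879 (0.299 to 0.976). The libraries are shared by all genes, so these are descriptions and no test was made. They include the cKO libraries, in which a haplotype difference and loss of PU.1 cannot be told apart for H2 genes. The division of reads between H2-DMb1 and H2-DMb2 is also uncertain. Ciita went closest with Cd74 among the 10 (r = 0.851) and least with H2-DMb1 (r = 0.299). Many other genes went closer with it: by r with Ciita, Cd74 ranked 163 among all genes compared, H2-DMb2 514 and H2-DMb1 2951. Among all 8737 genes at 10 CPM or more, those most like Ciita were Lrch1 (0.958), Stat5b (0.947), Dip2b (0.946), Evl (0.944) and Camta2 (0.937).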

How the data were processed

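RNA of 24 libraries was sequenced by the authors, aligned to GRCm38 with Subread and, for uniquely mapped reads, counted with featureCounts over RefSeq exons. The authors deposited raw counts per gene, and log2 RPKM that they had quantile normalized. The 517 entries without a symbol (0.162% of counts) stayed out. Counts were tested with edgeR 4.0.16 (R 4.3.3; TMM, quasi-likelihood) on genes with at least 0.5 CPM in 2 libraries. Each stage was fitted with its 8 libraries, and control stages and differences between stages with all 24. DE required an adjusted p (Benjamini-Hochberg) below 0.15, more than a 1.5-fold change and mean log2 RPKM above 0, and interactions and stage differences used the adjusted p alone. SE was derived from the quasi-likelihood F. CPM were TMM-normalised within a stage unless the text names all 24 libraries. Levels were compared between genes by deposited log2 RPKM within a stage.

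All 10 genes are named, with DE genes of the lists of transcription factors, processing and turnover, class I and other class II genes. These lists, and the 10 genes, were chosen with earlier results of these data known. Alternatives were DESeq2 1.42.0, its size factors, limma 3.58.1 voom with quantile normalization, no count filter, no RPKM threshold, adjusted p under 0.05, the replicate number as a block and each library left out. The study describes separate experiments for the CD40L + IL-4 expression values, but no source used here ties a replicate number to an experiment. Correlations of same-numbered libraries' deviations were 0.168 to 0.381 in naive cells, -0.0472 to 0.403 after CD40L + IL-4 and 0.418 to 0.603 after LPS + IL-4. The numbers may therefore pair libraries in naive cells and after LPS + IL-4. The main fits had no replicate block and ignored such a pairing, and the fit with the block is given as an alternative. The test was checked on simulated data.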

Additional observations from a re-analysis of the deposited data

Results flagged for a closer look

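The effect of DKO against control differed between the cultures for 7 of the 10 genes by the test of the difference itself (edgeR, LPS + IL-4 minus CD40L + IL-4, log2 scale). The differences were 1.2 for Ciita, 0.97 for H2-Ob, 0.8 for H2-DMa, 0.74 for H2-Oa, 0.71 for H2-DMb2, 0.57 for H2-DMb1 and 0.54 for Cd74. The background is high, since 28.6% of all genes tested passed, and the cultures may come from separate sequencing runs.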

How the results depend on the processing

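Counts of the 10 genes moved under some settings. At an adjusted p under 0.05, 0 remained for naive SpiB KO against control, 3 for CD40L + IL-4 cKO against control, 0 for CD40L + IL-4 DKO against cKO, 0 for LPS + IL-4 DKO against SpiB KO and 3 for the DKO stage difference between the cultures. Without the count filter, interactions numbered 1 in naive cells, 1 after CD40L + IL-4 and 3 after LPS + IL-4, CD40L + IL-4 DKO against cKO gave 2, LPS + IL-4 DKO against control gave 0, and CD40L + IL-4 minus naive gave 2 for cKO and 1 for DKO. DESeq2 gave 2 for CD40L + IL-4 DKO against cKO, its size factors gave 1 for cKO, CD40L + IL-4 minus naive, and voom gave 5 for CD40L + IL-4 DKO against control. The causes were not tested.

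With the replicate number as a block, interactions numbered 2 in naive cells, 1 after CD40L + IL-4 and 2 after LPS + IL-4, and CD40L + IL-4 DKO against cKO gave 2 (Ciita, -0.67, SE 0.15, edgeR adjusted p = 0.0401). Over all genes the block took interactions from 117 to 1413 in naive cells, 149 to 409 after CD40L + IL-4 and 184 to 1286 after LPS + IL-4, and CD40L + IL-4 SpiB KO against control from 14 to 47. DESeq2 gave 436, 284, 376 and 60 for these.

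Leaving out 1 library at a time gave 0 to 1 for naive SpiB KO against control, naive DKO against SpiB KO and the naive interaction. It gave 1 to 8 for CD40L + IL-4 cKO against control, 3 to 9 for DKO against control, 0 to 1 for DKO against cKO and 3 to 9 against SpiB KO. After LPS + IL-4 it gave 3 to 7 for cKO, 0 to 3 for SpiB KO and 0 to 1 for DKO against control, 1 to 2 for DKO against SpiB KO and 1 to 3 for the interaction. The stage difference of DKO gave 2 to 8.

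For that stage difference DESeq2 (8), voom (6), the block (8) and leaving out libraries were added after seeing the data. Voom turned Cd74 to -0.13. Of the values of single genes under other settings, 745 kept direction and side of the threshold, 103 kept direction and lost the call, and 1 turned. With 2 libraries a group, differences near the 1.5-fold limit are not settled by these data.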
